A study of Mus musculus with 21 samples.

Results

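Transcript content and gene diversity per cell were measured in mouse skeletal muscle before and after injury. Transcript content is the number of unique molecular identifiers (UMIs, which count captured transcripts) in a cell, and gene diversity is the number of genes with at least 1 of them. Their log ratio is the log10 of genes divided by the log10 of UMIs. All 87822 cells of the series carried both numbers, so every cell was a member. Cells were sorted by the deposited type labels, made after Harmony integration. A Harmony type was given to 83925 cells, and 3897 cells had none. The labels named 23 types, of which 19 were non-myogenic and 4 were myogenic (muscle stem cells or MuSCs, myoblasts with progenitors, and the myonuclei of type IIb and of type IIx). Types were compared within a sample where they had at least 10 cells, which held for 423 of 483 combinations of type and sample and for 83655 cells. The myogenic types had 6790 cells and 68 of those combinations.

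The RNA content of a cell follows its size and its activity, and stem cells that leave quiescence enlarge and raise their RNA content. Nuclei hold less RNA than whole cells, and muscle fibres are too large to enter a droplet whole. In droplet libraries the number of UMIs also depends on sequencing depth, which differs between libraries but is shared by all cells of a library.

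The study followed regeneration of the tibialis anterior muscle in 20-month-old female C57Bl/6J mice after injection of notexin, a snake venom toxin that destroys muscle fibres. Single cells were sequenced as 10x Chromium 3' v3 libraries, 1 mouse per library, and 21 libraries formed 6 groups. There were 4 uninjured samples. Days post injury are written dpi, and 4 samples were taken at 1 dpi, 3 samples at 2 dpi, 4 samples at 3.5 dpi, 3 samples at 5 dpi and 3 samples at 7 dpi. The total number of UMIs per sample ran from 5602464 to 70730171, with a median of 38088706.

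The samples differed in ways that followed the groups. In the 4 uninjured samples 44.2 to 56.3% of reads fell in cells, and the median mitochondrial share of UMIs was 8.25 to 18.4%. Sample 1 dpi B had 47.7% of its reads in cells. Because the uninjured libraries stood apart as a group, library quality and the uninjured state cannot be told apart, and each comparison over injury days was also made without the uninjured group. No sequencing batch or date was given. The authors collected mice of several time points together, but which samples shared a day was not stated, so no test could take the day into account. Samples shared few cell barcodes, at most 0.418% in any of 210 pairs. The deposited per-cell tables hold no values for single genes, so with these tables the type labels could not be checked against marker genes. The libraries were made from cell suspensions and not from isolated nuclei. Barcodes labelled as myonuclei are called nuclei here by that label only, and whether they held bare nuclei was not tested.

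All tests were two-sided and took the mouse as the replicate, and p was adjusted by the Benjamini-Hochberg method within each family with a threshold of 0.05. Differences within samples were tested with an exact sign-flip test. Differences between time points were tested with a permutation test of the F statistic, whose smallest p was 1e-05.

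Types were first ordered within each sample by percentile rank, from 0 for the type with the lowest median to 100 for the highest. Myoblasts and progenitors, the committed descendants of MuSCs, had the highest mean rank in UMIs, 94.5, with 20300.3 ± 10847 UMIs (SD of sample medians, n = 10). Pro-remodeling fibro-adipogenic progenitors (FAPs, mesenchymal cells of the muscle interstitium) followed at 87.8 with 15027 ± 7303 UMIs (n = 21). These means cover different samples, because myoblasts and progenitors reached 10 cells only from 3.5 dpi on. Over those 10 shared samples pro-remodeling FAPs had a mean rank of 95.8 and lay above myoblasts and progenitors in 6, while the latter ranked highest in all 4 samples at 3.5 dpi. Patrolling monocytes, a blood-derived myeloid type, had a mean rank of 82.5. Stem FAPs had 80.5 and adipogenic FAPs 73.6. Over the 10 shared samples the order below the first 2 types was different, with tenocytes at 83.7, adipogenic FAPs at 80.4, patrolling monocytes at 78.7, MuSCs at 73.9 and stem FAPs at 71.6. At the other end were type IIb myonuclei, a label for the nuclei of fast fibres, with a mean rank of 5.12 and 2159 ± 378 UMIs (n = 20). Type IIx myonuclei, from a related fast fibre type, had a mean rank of 9.81 and 2457 ± 916 UMIs (n = 19). Neutrophils, the first white cells to enter injured muscle, had a mean rank of 9.85, B cells of 14.7 and capillary endothelial cells of 19.4.

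**Figure D1:**
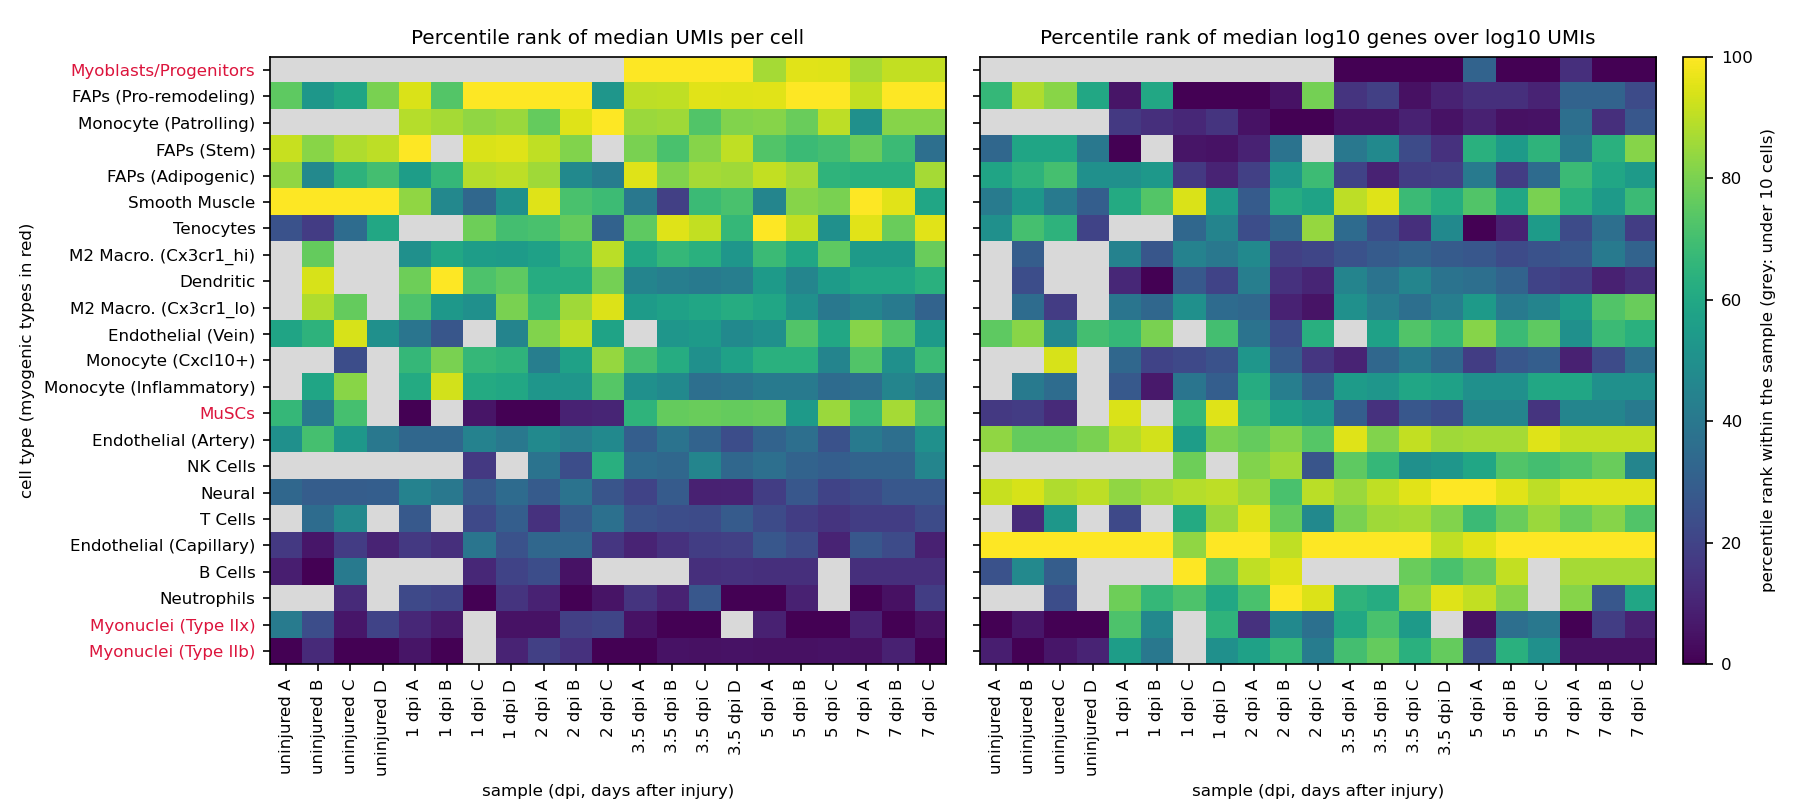
Percentile rank of each type (rows) within each sample (columns) in median UMIs and in median log ratio, coloured from 0 (lowest) to 100 (highest), with grey for fewer than 10 cells. Myoblasts and progenitors had a mean rank of 94.5 in UMIs and 4.55 in the log ratio.

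The order by genes was close to that by UMIs. Pro-remodeling FAPs had the highest mean rank in genes, 90.6, ahead of myoblasts and progenitors at 89.5. Stem FAPs had a mean rank of 83.0, patrolling monocytes of 76.9 and adipogenic FAPs of 76.5. Over the 10 samples shared with myoblasts and progenitors, adipogenic FAPs had 83.7, tenocytes 82.4, MuSCs 78.5 and stem FAPs 75.3. Smooth muscle cells followed at 72.5 and patrolling monocytes at 72.1. Type IIb myonuclei had the lowest mean rank, 3.83, with 785 ± 70.2 genes (SD of sample medians, n = 20). The authors describe a minimum of 750 genes per cell, yet 46.0% of type IIb and 36.5% of type IIx nuclei in the deposited tables had fewer, and all were kept. So had 33.2% of neutrophils, 9.32% of MuSCs and at most 7.11% of the cells of any other type. Type IIx myonuclei had a mean rank of 6.29, neutrophils of 9.19, B cells of 14.1 and T cells of 22.5.

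By the log ratio the order was different. Capillary endothelial cells had the highest ratio in 17 of 21 samples, with a mean rank of 98.1 and a mean ratio of 0.905. Neural cells, which are largely the glia of muscle nerves, had a mean rank of 90.6, arterial endothelial cells of 83.7, B cells of 74.2 and neutrophils of 71.2. Myoblasts and progenitors had the lowest mean rank, 4.55, with a ratio of 0.844, and were lowest in 8 of the 10 samples in which they were ranked. Patrolling monocytes had a mean rank of 10.6, dendritic cells of 24.8, pro-remodeling FAPs of 29.4 and type IIx myonuclei of 30.7. Over the samples shared with myoblasts and progenitors, pro-remodeling FAPs had 17.2. There tenocytes and Cxcl10+ monocytes (26.1 each) and Cx3cr1_hi macrophages (28.9) lay below dendritic cells (29.6) and type IIx myonuclei (32.7). At the upper end T cells (79.5) then lay above neutrophils (71.7). The log ratio compares types at unequal UMIs, so its order is not an order of genes at equal UMIs. Among cells with 3000 to 5000 UMIs, the mean rank in genes was 87.1 for pro-remodeling FAPs (8 samples) and 82.7 for capillary endothelial cells (21 samples). It was 25.8 for neutrophils (8 samples) and 20.6 for myoblasts and progenitors (3 samples).

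Whether myogenic types differ from the rest of the muscle was asked with the mean rank of the myogenic types minus that of the non-myogenic types in each sample (9 tests). In UMIs the myogenic types stood lower in percentile rank (difference of -25.00 points, SD 21.1, n = 21, lower in 20 samples, adjusted p = 4.72e-05). In genes the difference was -28.5 (SD 23.0, lower in 20 of 21 samples, adjusted p = 4.72e-05). In the log ratio it was -19.7 (SD 25.7, lower in 17 of 21 samples, adjusted p = 0.00499). The test took the types as fixed and asked whether these 4 stood apart from these 19 in repeated mice, and whether any other 4 types would stand as far apart was not tested. Sample 3.5 dpi D, where type IIx myonuclei had fewer than 10 cells, was the only one with a positive difference in UMIs, 11.9. A stricter choice of cells, with 1000 genes or more, 2000 UMIs or more and a mitochondrial share of 15% or less, selects on the measures that were compared. It left 33.1% of type IIb nuclei, 37.3% of type IIx nuclei and 10 MuSCs or more in 1 of the 6 early samples (1 and 2 dpi) that had them, so it cannot serve as a check of these differences.

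The 4 myogenic types did not form 1 group. Type IIb and IIx myonuclei together stood below the non-myogenic types in UMIs by -46.4 percentile points (SD 5.04, lower in 20 of 20 samples, adjusted p = 8.58e-06). In genes the myonuclei differed by -49.4 (SD 4.34, lower in 20 of 20 samples, adjusted p = 8.58e-06). For MuSCs with myoblasts and progenitors no difference from the non-myogenic types passed in UMIs (1.77, SD 39.6, higher in 12 of 19 samples, adjusted p = 0.844). The test did not pass in genes either (-3.11, SD 41.4, lower in 9 of 19 samples, adjusted p = 0.835). With labels made after BBKNN integration, another method of aligning samples, the stem and progenitor types stood 27.1 points higher in UMIs (adjusted p = 0.000942) and 18.8 higher in genes (adjusted p = 0.0479).

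In the log ratio the myonuclei stood at -18.2 percentile points (SD 30.5, lower in 13 of 20 samples, adjusted p = 0.0251). The stem and progenitor types stood at -18.4 (SD 31.9, lower in 13 of 19 samples, adjusted p = 0.0318). Neither passed when cells were limited to at most 10% mitochondrial UMIs (adjusted p = 0.0823 and 0.130). The call for the stem and progenitor types also ended when any 1 of 9 samples was left out, with an adjusted p of at most 0.0556.

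**Figure D2:**
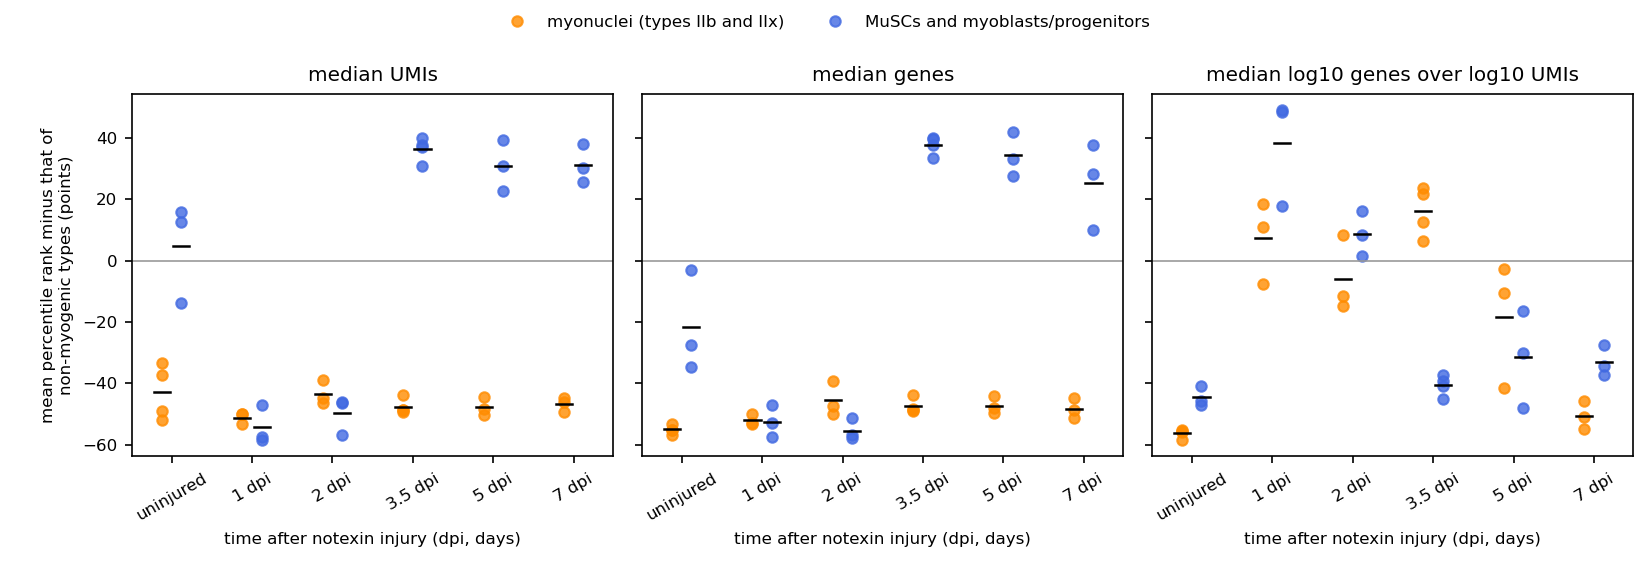
Mean percentile rank of myonuclei (orange) and of stem and progenitor types (blue) minus that of non-myogenic types, by time after injury, for UMIs, genes and log ratio, with 1 point per sample and bars at the group means. In UMIs the stem and progenitor types lay at a group mean of -54.2 at 1 dpi and 36.3 at 3.5 dpi.

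The position of the stem and progenitor types among the other types differed between time points in UMIs (adjusted p = 1.80e-05, permutation test, 9 tests). The difference from non-myogenic types was 12.5, -13.7 and 15.7 percentile points in uninjured A, B and C. It was -58.3, -46.9 and -57.5 in 1 dpi A, C and D, and -56.6, -46.1 and -46.4 in the 3 samples at 2 dpi. All 10 later samples were positive, with 30.7, 37.0, 37.7 and 39.7 (3.5 dpi), 30.6, 22.6 and 39.1 (5 dpi), and 25.6, 37.9 and 30.1 (7 dpi). The 6 samples at 1 and 2 dpi did not overlap with any other sample, and all later samples lay above the 3 uninjured ones. With the uninjured group left out, the adjusted p was 0.000330.

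In genes the stem and progenitor types also differed between time points, with the uninjured group (adjusted p = 1.80e-05) and without it (0.000306). Their log ratio was highest when UMIs were lowest, with mean differences of -44.6 percentile points in uninjured muscle, 38.3 (1 dpi), 8.62 (2 dpi), -40.6 (3.5 dpi), -31.5 (5 dpi) and -33.0 (7 dpi) (adjusted p = 1.80e-05, and 0.000180 without the uninjured group). Among cells given the same broad class by all 3 label methods the test of the ratio did not pass (adjusted p = 0.0549), while UMIs and genes did (0.00982 each).

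The position of type IIb and IIx myonuclei in UMIs lay between group means of -51.1 at 1 dpi and -42.9 in uninjured muscle and did not pass over injury days (adjusted p = 0.297 over 6 groups, 0.0793 without the uninjured group). In genes they passed with the uninjured group (adjusted p = 0.0102) and not without it (0.264). Their log ratio differed between time points, from -56.2 percentile points in uninjured muscle to 16.03 at 3.5 dpi and -50.4 at 7 dpi (adjusted p = 3.00e-05, and 0.000964 without the uninjured group). Sample medians of the mitochondrial share ran from 0 to 15.7% in type IIb and from 0 to 11.5% in type IIx myonuclei. Whether the ratio follows this share was not tested. The 4 myogenic types together differed between time points in UMIs and in the ratio (adjusted p = 1.80e-05 each) and in genes (3.86e-05), and in all of these without the uninjured group (0.000306 each). Myoblasts and progenitors reached 10 cells only in the 10 samples from 3.5 dpi on, so the types behind these means changed with time.

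Types were then followed over injury days by their own sample medians (69 tests over 23 types). Of 23 types, 6 passed in UMIs (26.1%), 6 in genes (26.1%) and 8 in the log ratio (34.8%). MuSCs, adipogenic FAPs, stem FAPs, pro-remodeling FAPs, tenocytes and myoblasts with progenitors passed in both UMIs and genes. With BBKNN labels, which gave 21 types to test, the counts were 1, 1 and 3. Of the types called here, 4, 4 and 5 bore the same name under BBKNN, and 1, 1 and 2 of them passed. With UMIs corrected for the share of molecules detected 13 types passed in UMIs.

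MuSCs, the stem cells beneath the basal lamina of the fibre, changed in UMIs over injury days (adjusted p = 0.000230, permutation test, n = 19). Their median was 5892, 3912 and 5450 UMIs in uninjured A, B and C. It was 1639, 1712 and 1428 in 1 dpi A, C and D, and 1377, 1774 and 2279 at 2 dpi. At 3.5 dpi it was 16271, 20888, 14012 and 13198, which was 1.66 log2 units above the uninjured mean in 4 of 4 samples. At 5 dpi it was 10256, 5234 and 15070, and then 6618, 10596 and 9623 at 7 dpi. The samples at 1 and 2 dpi all lay below the uninjured samples, those at 3.5 and 7 dpi all lay above them, and 5 dpi B lay among them. Uninjured D and 1 dpi B had fewer than 10 MuSCs.

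MuSC genes followed the same course (adjusted p = 0.000230). The median was 1668, 1168 and 1663 genes in uninjured A, B and C, 733, 829 and 713 in 1 dpi A, C and D, and 678, 748.5 and 669.5 at 2 dpi. It was 3955.5, 4552, 3939 and 3469.5 at 3.5 dpi, 1.42 log2 units above the uninjured mean in 4 of 4 samples. At 5 dpi it was 3077, 2016 and 3932.5, and then 2430, 3131 and 2949 at 7 dpi. No sample at 1 or 2 dpi overlapped with an uninjured sample, and neither did any later one. The MuSC log ratio rose by 0.0399 at 1 dpi, beyond all uninjured samples in 3 of 3 (adjusted p = 0.00433). Without the uninjured group the MuSC results also passed, with an adjusted p of 0.00190 for UMIs and for genes and 0.0136 for the ratio.

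The label itself was less certain at the early times. Of MuSCs, 25.6% at 1 dpi and 11.5% at 2 dpi were called myogenic by all 3 label methods, against 91.3% in uninjured muscle and 99.3% at 3.5 dpi. Among the MuSCs called myogenic by all 3, pooled over the samples of a group, the median was 5081 UMIs in uninjured muscle. It was 1416 UMIs (1 dpi, 30 cells) and 1866 (2 dpi, 18 cells), then 14421 (3.5 dpi), 10762 (5 dpi) and 8724 (7 dpi). The medians of single samples ran from 1284 to 2101 at 1 dpi and from 1568 to 3191 at 2 dpi, and of these samples 1 dpi C alone had 10 such cells. Early MuSCs also lay near the authors' minimum of 1000 UMIs. In the 6 samples at 1 and 2 dpi 27.3 to 61.5% of MuSCs had fewer than 1500, and 47.9% at 1 dpi and 36.5% at 2 dpi had at least 750 genes. Among cells given the same broad class by all 3 methods, which left few early MuSCs, the change of MuSCs over injury days did not pass in UMIs (adjusted p = 0.0544, permutation test) or in the ratio (0.162) and passed in genes (0.0156). The median mitochondrial share of MuSCs was 16.96% in uninjured muscle, 8.67% at 1 dpi and 19.1% at 2 dpi.

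Myoblasts and progenitors were ranked only from 3.5 dpi on, and differed between the 3 time points in UMIs (adjusted p = 0.0108, permutation test, n = 10). They had 36912, 36589, 29414 and 25047 UMIs at 3.5 dpi, 13098, 10399 and 17898 at 5 dpi, and 8924, 13051 and 11672 at 7 dpi. The 4 samples at 3.5 dpi lay above all others, and those at 5 and 7 dpi overlapped. Their genes also differed (adjusted p = 0.00837), from 5358, 5639, 5312 and 4669 at 3.5 dpi to 3490.5, 3150.5 and 4308 at 5 dpi and 2808, 3309 and 2128 at 7 dpi.

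Type IIb myonuclei did not pass over injury days in UMIs. Their median was 2918, 2804, 2105 and 2155 UMIs in the uninjured samples, 1973, 2310.4 and 1816 in 1 dpi A, B and D, and 1742, 2175 and 1754 at 2 dpi. It was 1847, 1810.1 and 1739 in 3.5 dpi A, B and C and 2473 in D, 2565, 1693 and 2077 at 5 dpi, and 2120.4, 2453 and 2650 at 7 dpi. The groups overlapped. Of all types they had the least spread over samples, with an SD of 0.25 in log2 UMIs, and MuSCs had the most, 1.34. The IIb log ratio rose by 0.0408 at 2 dpi, beyond all uninjured samples in 3 of 3 (adjusted p = 0.00837).

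Type IIx myonuclei had 5527, 3382, 2519 and 3362 UMIs in the uninjured samples, 2257, 2516 and 1799 in 1 dpi A, B and D, and 1606, 2339.6 and 2336 at 2 dpi. They had 2118, 1693 and 1614 in 3.5 dpi A, B and C, 2753, 1510.4 and 1895 at 5 dpi, and 2352, 2408 and 2701 at 7 dpi. UMIs did not pass over injury days (adjusted p = 0.0537), and the samples at 5 and 7 dpi overlapped with the uninjured ones. The IIx log ratio rose by 0.0359 at 2 dpi in 3 of 3 samples (adjusted p = 0.0182). Neither the IIb nor the IIx ratio passed without the uninjured group. Of all type IIb nuclei 19.02% had fewer than 1500 UMIs, as had 15.6% of IIx nuclei and 26.9% of neutrophils, near the minimum of 1000 that the authors set, and how far that minimum raised these medians was not tested.

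**Figure D3:**
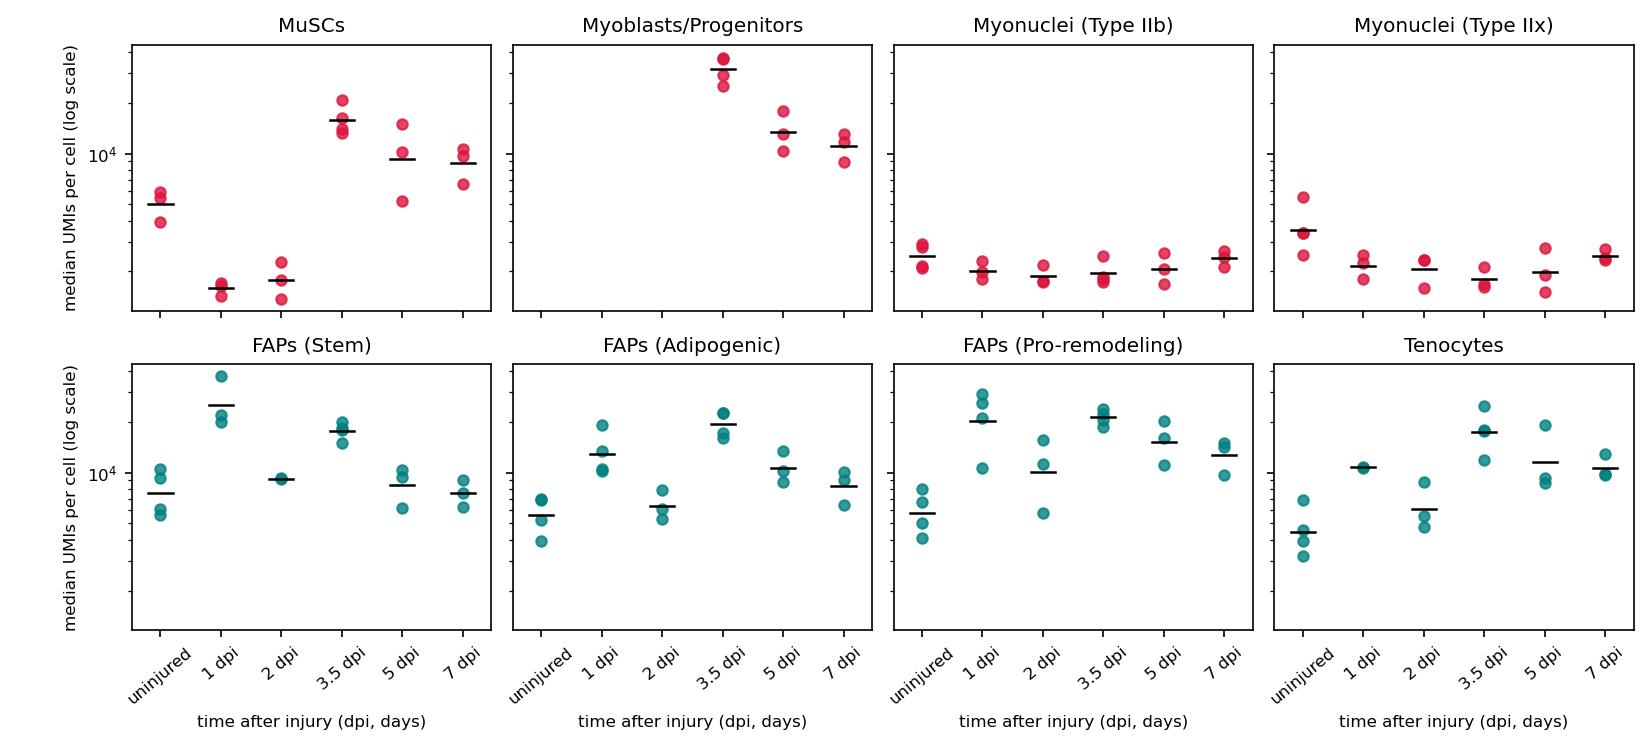
Median UMIs per cell in each sample by time after injury (log axis), for MuSCs, myoblasts and progenitors, type IIb and IIx myonuclei, 3 types of FAPs and tenocytes, with 1 point per sample and bars at the geometric means. MuSCs had medians from 1377 to 2279 at 2 dpi and from 13198 to 20888 at 3.5 dpi.

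The states of the myogenic lineage, which the authors labelled from quiescence to fusion, were compared as 5 pairs within samples (15 tests, exact sign-flip test). Of 5 pairs, 3 passed in UMIs (60%), 3 in genes (60%) and 4 in the log ratio (80%). Activated MuSCs and committed myoblasts reached 10 cells only from 3.5 dpi on, so their pairs compare states within regenerating muscle. There the cells labelled quiescent also differed from those of uninjured muscle. Their sample medians averaged 5184 UMIs in uninjured muscle, 19709.5 at 3.5 dpi, 10187 at 5 dpi and 9174 at 7 dpi. Activated MuSCs had more UMIs than quiescent MuSCs in 10 of 10 samples (mean log2 ratio 0.27, SD 0.17, exact adjusted p = 0.0195). Committed myoblasts had more than quiescent MuSCs in 8 of 8 samples (0.72, SD 0.35, exact adjusted p = 0.0195). Committed myoblasts also had more than activated MuSCs in 7 of 8 samples (0.48, SD 0.43, exact adjusted p = 0.0260). In genes the same 3 pairs differed by log2 ratios of 0.11, 0.34 and 0.23 (exact adjusted p = 0.0220, 0.0195 and 0.0352 over 10, 8 and 8 samples).

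The log ratio of these states went down in the same order. It was lower in activated than in quiescent MuSCs in 8 of 10 samples (-0.00674, exact adjusted p = 0.0220) and lower in committed myoblasts than in quiescent MuSCs in 8 of 8 (-0.0188, exact adjusted p = 0.0195). It was also lower in fusing myocytes than in quiescent MuSCs in 9 of 10 samples (-0.0204, exact adjusted p = 0.0195), and in committed myoblasts than in activated MuSCs in 8 of 8 (-0.0135, exact adjusted p = 0.0195). Fusing and quiescent cells did not pass in UMIs (0.40, SD 0.97, exact adjusted p = 0.293) or in genes (0.01, SD 0.72, exact adjusted p = 0.986), where uninjured A, the 1 uninjured sample with both states, lay at -1.86 and -1.73. With the uninjured group left out, the pair passed in UMIs (0.65, exact adjusted p = 0.0293, n = 9) and not in genes (0.20, exact adjusted p = 0.229). Fusing and committed cells were not told apart in any measure (exact adjusted p = 0.611 for UMIs, 0.293 for genes and 0.379 for the ratio). With at least 25 cells per state, which left fewer samples, 1 pair passed in each measure.

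The mesenchymal types had more UMIs at some times after injury, and all 4 had more at 3.5 dpi. Adipogenic FAPs had 6864, 3943, 5244 and 6948 UMIs in the uninjured samples and 22750, 22522, 16092 and 17305 at 3.5 dpi, a rise of 1.79 log2 units beyond all uninjured samples in 4 of 4 (adjusted p = 0.000230, permutation test over 6 groups). Their genes rose by 1.16 log2 units at 3.5 dpi (adjusted p = 0.00118) and their log ratio fell by 0.0263 (adjusted p = 0.00138). Adipogenic FAPs also differed between time points without the uninjured group (adjusted p = 0.00472 for UMIs, 0.0119 for genes and 0.00621 for the ratio).

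Stem FAPs had 9262, 5616, 6076 and 10507 UMIs in the uninjured samples and 37372, 19970 and 21878 in 1 dpi A, C and D, where the rise was largest at 1.74 log2 units (3 of 3 beyond all uninjured samples, adjusted p = 0.00118, permutation test). Their genes rose by 1.02 log2 units at 1 dpi (adjusted p = 0.00118) and their log ratio fell by 0.0314 (adjusted p = 0.000862). Without the uninjured group the adjusted p was 0.00190 for UMIs and for genes and 0.00290 for the ratio. The values at 7 dpi, 7625, 9067 and 6221 UMIs, overlapped with the uninjured ones.

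Pro-remodeling FAPs rose in UMIs by 1.88 log2 units at 3.5 dpi, from 6726, 4092, 5029 and 8028 in uninjured muscle to 22362, 23926, 18790.1 and 20523 (4 of 4, adjusted p = 0.00653, permutation test). Their genes rose by 1.17 log2 units at 3.5 dpi (adjusted p = 0.00460), and their log ratio fell by 0.0350 at 1 dpi in 4 of 4 samples (adjusted p = 0.0108). They did not pass without the uninjured group in UMIs (adjusted p = 0.246), in genes (0.310) or in the ratio (0.183).

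Tenocytes, the cells of tendon, had 4570.2, 3218, 3954 and 6905 UMIs in uninjured muscle and 17616, 24929, 17978 and 11848 at 3.5 dpi, a rise of 1.97 log2 units in 4 of 4 samples (adjusted p = 0.00379, permutation test). Their genes rose by 1.43 log2 units (adjusted p = 0.00215) and their log ratio fell by 0.0192 (adjusted p = 0.0362). Tenocytes did not pass without the uninjured group in UMIs or genes (adjusted p = 0.0707 each) or in the ratio (0.0949). B cells passed in the log ratio only, with a rise of 0.0431 at 2 dpi in 2 of 2 samples (adjusted p = 0.0423, permutation test), and not without the uninjured group.

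Related types were compared within samples as 19 pairs (57 tests). In UMIs 16 of 19 pairs passed (84.2%), in genes 13 (68.4%) and in the log ratio 11 (57.9%). Labels made after BBKNN had 15 of these pairs, of which 13, 11 and 13 passed. Among them 12, 11 and 10 were called with Harmony labels, and 10, 9 and 10 of these passed. Labels made after Scanorama, a further integration method, had 6 of these pairs, of which 5, 6 and 4 passed. Among them 4, 4 and 5 were called with Harmony labels, and 4, 4 and 4 of these passed.

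Among the vessels, capillary endothelial cells had fewer UMIs than arterial ones in 21 of 21 samples (mean log2 ratio -0.68, SD 0.33, adjusted p = 1.81e-05). Capillary cells also had fewer than venous cells in 19 of 19 samples (-1.15, SD 0.35, adjusted p = 2.17e-05), and arterial cells had fewer than venous cells in 17 of 19 (-0.46, SD 0.39, adjusted p = 0.000252). Smooth muscle cells, which wrap the larger vessels, had more UMIs than capillary cells in 20 of 21 samples (capillary over smooth muscle -1.42, SD 0.59, adjusted p = 1.81e-05). In each of these 4 pairs the type with fewer UMIs also had fewer genes, with log2 ratios of -0.44, -0.75, -0.29 and -0.94. The same type had the higher log ratio, by 0.0111, 0.0233, 0.0121 and 0.0231, and all 4 pairs passed in all 3 measures. This ratio was taken at each type's own UMIs. Among cells with 3000 to 5000 UMIs, mean genes were 1724 in capillary, 1704 in arterial, 1659 in venous and 1747 in smooth muscle cells. At 5000 to 8000 UMIs they were 2371, 2407, 2420 and 2525. These means cover different samples, and the pairs were not tested at matched UMIs.

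Among mesenchymal types, pro-remodeling FAPs had more UMIs than adipogenic FAPs in 18 of 21 samples (0.42, SD 0.44, adjusted p = 0.000101) and more genes in 20 of 21 (0.27, adjusted p = 1.81e-05). Their log ratio was lower, with a mean difference of -0.00592 (adjusted p = 0.0136). In UMIs this pair differed by 0.04 in uninjured muscle (higher in 2 of 4 samples) and 0.13 at 3.5 dpi (3 of 4). At the other times the group means were 0.52 to 0.68, higher in all samples. Against tenocytes, pro-remodeling FAPs had more UMIs in 16 of 19 samples (0.47, SD 0.44, adjusted p = 0.000373) and more genes in 17 of 19 (0.36, adjusted p = 0.000157). Against stem FAPs they had more UMIs in 14 of 19 samples but fewer in 4 of 4 uninjured ones (0.28, SD 0.51, adjusted p = 0.0420), which did not pass in genes (adjusted p = 0.0511). Over all samples adipogenic and stem FAPs passed in no measure (adjusted p = 0.250, 0.187 and 0.578), but their direction in UMIs changed with time. Adipogenic FAPs had fewer UMIs in 4 of 4 uninjured samples (-0.44), 3 of 3 at 1 dpi (-0.87) and 2 of 2 at 2 dpi (-0.41). They had more in 3 of 4 samples at 3.5 dpi (0.13), 2 of 3 at 5 dpi (0.34) and 1 of 3 at 7 dpi (0.15).

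Among myogenic types, MuSCs had fewer UMIs than myoblasts and progenitors in 10 of 10 samples (-0.66, SD 0.37, adjusted p = 0.00348) and a higher log ratio in 10 of 10 (0.0212, adjusted p = 0.00348). Type IIb myonuclei had fewer UMIs than MuSCs in 14 of 18 samples (-1.45, SD 1.29, adjusted p = 0.000765) and fewer genes (-1.25, adjusted p = 0.000707). The exceptions in UMIs were 2 of 2 samples at 1 dpi and 2 of 3 at 2 dpi, so the direction held before injury and from 3.5 dpi on. Type IIb had fewer UMIs than type IIx myonuclei in 12 of 19 samples (-0.14, SD 0.28, adjusted p = 0.0403). The mean was -0.52 in the uninjured group, lower in 4 of 4 samples, and between -0.13 and 0.06 in the groups after injury, lower in 8 of 15. The pair did not pass without the uninjured group (-0.04, adjusted p = 0.376). Among cells with at least 750 genes, which were 54.0% of IIb and 63.5% of IIx nuclei, the IIb to IIx difference turned to 0.05 (adjusted p = 0.218).

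Among myeloid types, inflammatory monocytes had fewer UMIs than patrolling monocytes in 16 of 17 samples (-0.76, SD 0.34, adjusted p = 0.000102), fewer genes (-0.46) and a higher log ratio (0.0150). Neutrophils had fewer UMIs than inflammatory monocytes in 17 of 17 samples (-1.66, SD 0.56, adjusted p = 6.69e-05), fewer genes (-1.29) and a higher log ratio (0.0161). Inflammatory monocytes had fewer UMIs than Cx3cr1_lo M2 macrophages in 14 of 19 samples (-0.22, SD 0.28, adjusted p = 0.00730) and fewer genes in 16 of 19 (-0.19, adjusted p = 0.000455). They also had fewer UMIs than Cxcl10+ monocytes in 15 of 18 samples (-0.22, SD 0.38, adjusted p = 0.0420) and fewer genes in 13 of 18 (-0.13, adjusted p = 0.0434). Against Cx3cr1_lo macrophages their mean difference in UMIs was 0.02 at 1 dpi (lower in 2 of 4 samples) and 0.004 at 7 dpi (1 of 3). It was -0.16 in uninjured muscle (1 of 2), -0.52 at 2 dpi (3 of 3), -0.41 at 3.5 dpi (4 of 4) and -0.23 at 5 dpi (3 of 3). Over all samples dendritic cells differed from Cx3cr1_lo macrophages in the log ratio only, which was lower in 14 of 18 (-0.00706, adjusted p = 0.00378). In UMIs the direction of this pair changed with time. It was lower at 2 dpi (-0.31, 3 of 3 samples) and 3.5 dpi (-0.40, 4 of 4) and higher at 7 dpi (0.50, 3 of 3). Cx3cr1_hi macrophages had a lower log ratio than Cx3cr1_lo macrophages in 13 of 18 samples (-0.00398, adjusted p = 0.0282), which turned to 0.00769 with Scanorama labels (adjusted p = 0.207). In UMIs these 2 types did not pass over all samples (sign-flip adjusted p = 0.586). Cx3cr1_hi macrophages had fewer UMIs in 3 of 3 samples at 2 dpi (-0.30). They had more in 3 of 3 at 5 dpi (0.22) and 3 of 3 at 7 dpi (0.51), with samples of both directions at 1 and 3.5 dpi.

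Among lymphocytes, T cells had fewer UMIs than NK cells in 12 of 14 samples (-0.48, SD 0.34, adjusted p = 0.000994), fewer genes in 13 of 14 (-0.30, adjusted p = 0.00120) and a higher log ratio in 12 of 14 (0.00732, adjusted p = 0.00232). T cells had more UMIs than B cells in 12 of 13 samples (0.29, SD 0.24, adjusted p = 0.000994) and more genes in 13 of 13 (0.24, adjusted p = 0.000605).

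To remove what all types of a library share, each type was also set against the median type of its own sample (69 tests). On this scale 15 of 23 types differed between time points in UMIs (65.2%), 13 in genes (56.5%) and 10 in the log ratio (43.5%). With at most 10% mitochondrial UMIs the counts in UMIs and genes were 9 and 7, and with BBKNN labels 9 and 8. The types behind the median changed from sample to sample, from 11 to 23. A fixed reference was the mean of the 6 types present in all 21 samples, which were arterial and capillary endothelial cells, adipogenic and pro-remodeling FAPs, neural cells and smooth muscle cells. Against it 10 types passed in UMIs, 9 in genes and 8 in the ratio. Under both references 7 types passed in UMIs, namely MuSCs, myoblasts with progenitors, both kinds of myonuclei, stem FAPs, venous endothelial cells (whose largest difference was then a rise of 0.51 at 2 dpi) and B cells. Smooth muscle, neural, arterial endothelial, dendritic and T cells, Cx3cr1_lo macrophages and inflammatory and patrolling monocytes did not pass in UMIs against the fixed reference (adjusted p from 0.0981 to 0.495). The differences kept their direction, at -1.11 log2 units for T cells (1 dpi), -1.05 for smooth muscle, -0.73 for neural and -0.51 for arterial endothelial cells (3.5 dpi), and -0.70 for Cx3cr1_lo macrophages and -0.54 for inflammatory monocytes (7 dpi). Against the median type, MuSCs had the largest difference from uninjured muscle, -2.58 log2 UMIs at 1 dpi in 3 of 3 samples (adjusted p = 0.000230). Among cells with at least 750 genes it was -1.25 (adjusted p = 0.00166), and among those given the same broad class by all 3 label methods it was -2.70 and did not pass (adjusted p = 0.0793). Type IIx myonuclei fell by 1.91 log2 units at 3.5 dpi (3 of 3 samples, adjusted p = 0.000276), and type IIb myonuclei by 1.28 (4 of 4 samples, adjusted p = 0.00122). Smooth muscle cells fell by 1.48 log2 units at 3.5 dpi (4 of 4 samples, adjusted p = 0.0281).

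Neural cells fell by 1.15 log2 units relative to their sample at 3.5 dpi (4 of 4 samples, adjusted p = 0.000460, permutation test), and arterial endothelial cells by 0.94 (4 of 4, adjusted p = 0.0150). Venous endothelial cells fell by 0.81 at 1 dpi (3 of 3, adjusted p = 0.00243). T cells fell by 1.22 at 1 dpi (3 of 3, adjusted p = 0.0192) and B cells by 1.14 (2 of 2, adjusted p = 0.0398). Stem FAPs rose by 0.89 at 1 dpi (3 of 3, adjusted p = 0.000897, permutation test) and were the only 1 of these types whose largest difference was a rise. In UMIs against the median type adipogenic FAPs (0.86 at 3.5 dpi), pro-remodeling FAPs (0.96 at 1 dpi) and tenocytes (1.03 at 3.5 dpi) did not pass (adjusted p = 0.0985 each). They passed against the fixed reference, to which both of these FAP types belong, with 1.28, 1.37 and 1.45 at 3.5 dpi (adjusted p = 0.00147, 0.00372 and 0.0162). At 7 dpi Cx3cr1_lo macrophages lay lower by -0.79 (3 of 3, adjusted p = 0.00184) and inflammatory monocytes by -0.63 (3 of 3, adjusted p = 0.0232), which turned to 0.0443 with Scanorama labels. Each of these samples lay beyond all uninjured samples of its type. Dendritic cells, patrolling monocytes and myoblasts with progenitors also passed, without enough uninjured samples for a difference. With the uninjured group left out, 11 types passed in UMIs, 10 in genes and 8 in the ratio. A fall on this scale is not by itself a fall in a type's own UMIs. From uninjured muscle to the named time, mean sample medians went from 5772 to 6487 in venous and 5232 to 5396 in arterial cells. Inflammatory monocytes went from 5254 to 5612. Neural cells went from 4158 to 3666, T cells from 4085 to 3617 and B cells from 3596 to 2896. Smooth muscle went from 10865 to 8042 and Cx3cr1_lo macrophages from 5818 to 5538. None of these types passed in UMIs by its own medians.

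Relative to their sample, the genes of MuSCs fell by 1.69 log2 units at 1 dpi (3 of 3 samples, adjusted p = 0.000230, permutation test). Genes of type IIx myonuclei fell by 1.13 at 3.5 dpi (3 of 3, adjusted p = 0.000394) and those of T cells by 0.88 at 1 dpi (3 of 3, adjusted p = 0.0451). Type IIb myonuclei, neural, arterial and venous endothelial cells, stem FAPs, Cx3cr1_lo macrophages and inflammatory monocytes also passed in genes. Of the 13 types called in genes, 5 passed under both references, which were MuSCs, myoblasts with progenitors, type IIx myonuclei, stem FAPs and venous endothelial cells. In the log ratio, type IIb myonuclei rose by 0.0441 at 3.5 dpi (4 of 4, adjusted p = 0.000276) and MuSCs by 0.0416 at 1 dpi (3 of 3, adjusted p = 0.000230, permutation test). Stem FAPs fell by 0.0293 at 1 dpi in the log ratio (3 of 3, adjusted p = 0.00100, permutation test).

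The typical cell of a sample was taken as the mean over the same 6 types present in all samples. It had 5416 UMIs on average in uninjured muscle and 8123 at 1 dpi. At the later times it had 5320.2 UMIs (2 dpi), 7654 (3.5 dpi), 6896 (5 dpi) and 7067 (7 dpi). The time points differed in UMIs and in genes (adjusted p = 0.0180 each, permutation test, 3 tests) and not in the log ratio (adjusted p = 0.0881). None of 15 exact permutation tests against uninjured muscle passed (adjusted p from 0.171 to 0.914), and 2 had an unadjusted p of 0.0286, the smallest that 4 against 4 samples allow. Without the uninjured group neither UMIs nor genes passed (adjusted p = 0.133), nor without the cells of highest doublet score (0.484 and 0.444). Of the 6 types, adipogenic and pro-remodeling FAPs passed over injury days by their own medians. At 3.5 dpi they rose by 1.79 and 1.88 log2 UMIs, and the mean over the 6 types by 0.51. Endothelial, neural and smooth muscle cells of the 6 did not pass (permutation test, adjusted p from 0.276 to 0.706 in UMIs and 0.372 to 0.864 in genes).

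The distance between types differed between the groups on average. The highest type median in a sample was 4.50 times the lowest in UMIs on average in uninjured muscle. It was 15.2 times (1 dpi), 9.86 times (2 dpi), 18.2 times (3.5 dpi), 9.35 times (5 dpi) and 5.86 times (7 dpi) the lowest after injury. Smooth muscle cells had the most UMIs in all 4 uninjured samples and myoblasts with progenitors in all 4 samples at 3.5 dpi. Across the types of a sample, Spearman's rho between UMIs and the log ratio averaged -0.02 in uninjured muscle and -0.866 at 3.5 dpi (11 to 23 types per sample). Types are not independent replicates, and these values were not tested.

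Because genes rise with UMIs, genes were also compared among cells with 3000 to 5000 UMIs. In that window the myogenic types stood below the non-myogenic types in genes by -43.7 percentile points (SD 26.3, lower in 13 of 14 samples, exact sign-flip test, adjusted p = 0.000732, 3 tests). Type IIb and IIx myonuclei stood at -57.2 (SD 3.71, lower in 13 of 13 samples, adjusted p = 0.000732). For the stem and progenitor types the test did not pass (-11.5, SD 37.1, lower in 5 of 7 samples, exact adjusted p = 0.391). At 2000 to 3000 UMIs the difference of all myogenic types was -56.7 (lower in 14 of 14 samples, adjusted p = 0.000183). At 5000 to 8000 UMIs it was -26.0 and did not pass (adjusted p = 0.0776), while the myonuclei stood at -56.7 (lower in 7 of 7 samples, exact adjusted p = 0.0469).

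**Figure D4:**
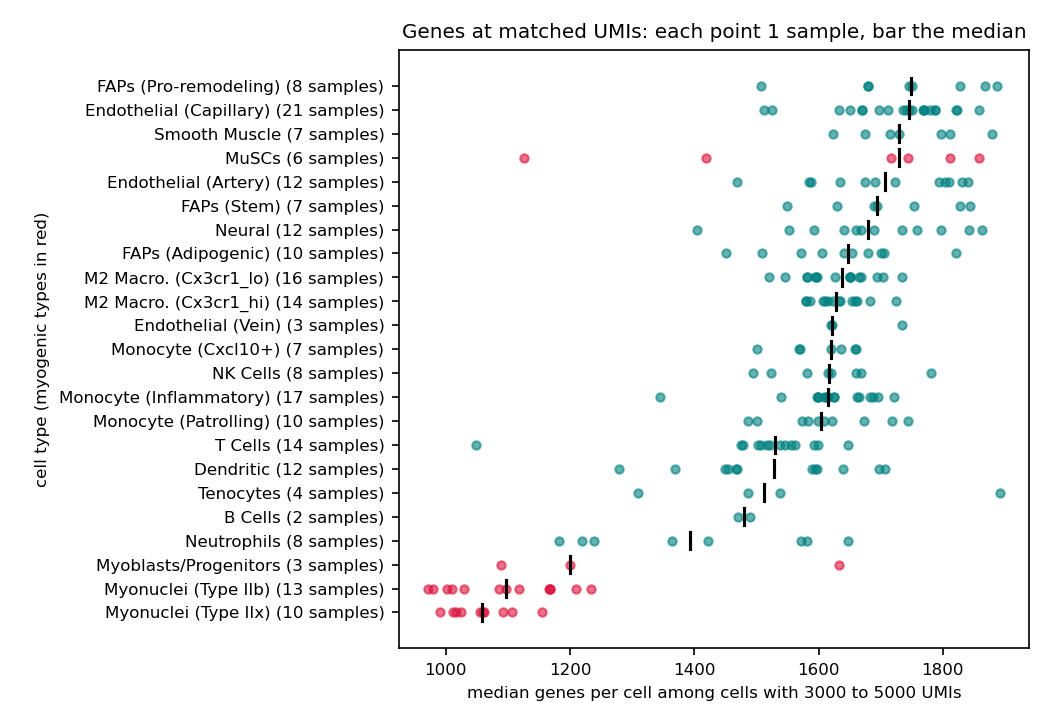
Median genes per cell among cells with 3000 to 5000 UMIs, by type, with 1 point per sample that had at least 10 such cells and bars at the medians. Type IIx and type IIb myonuclei lie lowest, with 991 to 1155 and 971 to 1233.5 genes.

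At 3000 to 5000 UMIs the median over samples was 1057.75 genes for type IIx myonuclei (10 samples, 991 to 1155) and 1097.5 for type IIb (13 samples, 971 to 1233.5). Myoblasts and progenitors had 1200 genes in 3 samples (1089 to 1633.5), neutrophils 1392.5, MuSCs 1730 in 6 samples, capillary endothelial cells 1746 in 21 samples and pro-remodeling FAPs 1748.5 in 8 samples. Over injury days 1 of 16 types passed in genes at matched UMIs (6.25%), arterial endothelial cells, which rose by 0.22 log2 units at 5 dpi (adjusted p = 0.0120, permutation test, n = 11). The count was 0 without the uninjured group, and also when 1 of uninjured A, 2 dpi A and 2 dpi B was left out. For the myonuclei no difference between time points passed at matched UMIs (adjusted p = 0.226, permutation test, n = 10).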

How the data were processed

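The deposited per-cell tables give UMIs as an estimated count, since the authors subtracted ambient RNA with SoupX and the values are not whole. Genes per cell, reads per barcode and barcodes per sample were deposited as a count. The mitochondrial share, the reads in cells and the saturation were deposited as a percent. The doublet score and the ambient share were deposited as a fraction. The authors aligned reads to mm10 with Cell Ranger 3.1.0 and removed cells of low quality and doublets, and the sample records name Seurat 3.1.5, whereas the published methods name a later release. No further normalization was made. Medians were taken per type and sample with at least 10 cells. The types named were, for each measure, the 5 highest and 5 lowest by mean rank, the 4 myogenic types, those that passed over injury days and the pairs that passed. Other types and values were picked after their values were seen. The members and lists were chosen with earlier results of these data known. Within samples, a two-sided exact sign-flip test was used. Between time points, the F statistic was tested with 100000 permutations, and with limma as an alternative. Part of the code was tested on simulated data. This covered the position of myogenic types, types over injury days, types relative to their sample and the typical cell. Pairs of types, states and genes at matched UMIs were not tested in this way. In the simulated data, types given a difference of 1 log2 unit passed over days in 2 of 9 tests. With 2 log2 units they passed in 8 of 9. There the sign-flip test of myogenic against non-myogenic types also passed in 2 of 3 runs in which types were given a random order that all samples shared, because it takes the types as fixed. Its p therefore speaks for these types and not for classes of types in general. Python 3.11.15, numpy 2.4.6, pandas 2.3.3, scipy 1.17.1, matplotlib 3.10.9, R 4.3.3 and limma 3.58.1 were used.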

Additional observations from a re-analysis of the deposited data

Results flagged for a closer look

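In a group of 4 samples, 1 sample can stand far from the other 3, and chance alone gives this in about 1 in 20 groups. Of 65 groups of 4 looked at, 7 had such a sample, against 3.25 expected at 1 in 20. Groups of 3 were not tested. In the difference of myogenic from non-myogenic types, 1 dpi C lay at -46.9 percentile points in UMIs and at -46.9 in genes, against -53.3 to -52.5 in the other samples of its group for both. In that sample MuSCs were the only myogenic type with 10 cells. For myonuclei, 3.5 dpi D lay at -43.6 in UMIs, with the others at -49.3 to -48.7, and at -43.6 in genes, with the others at -49.0 to -48.4. The myogenic types of 3.5 dpi D lay at 11.9 in genes, with the others at -7.72 to -4.37. In that sample type IIx myonuclei had fewer than 10 cells. The log ratio of the typical cell was 0.889 in uninjured C and 0.883 to 0.884 in the other uninjured samples. Pro-remodeling FAPs had 3180.5 genes in 1 dpi B and 4809 to 5211 in the others at 1 dpi. The cause of these gaps was not tested.

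The difference of myogenic from non-myogenic types depended on the time point by a permutation test. The adjusted p was 1.80e-05 for all myogenic types in UMIs and 1.80e-05 for the stem and progenitor types in UMIs. In genes it was 3.86e-05 for all myogenic types, 0.0102 for myonuclei and 1.80e-05 for the stem and progenitor types. In the log ratio it was 1.80e-05 for all myogenic types, 3.00e-05 for myonuclei and 1.80e-05 for the stem and progenitor types. Library quality differed between the uninjured group and the others. Without the uninjured group myonuclear genes did not pass (permutation p = 0.264) and the other 7 did, with an adjusted p of at most 0.000964. Without the 4 samples with under 50% of reads in cells the values were 0.526 and at most 0.000926.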

How the results depend on the processing

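Of 1457 values of the main comparisons under 43 alternatives, 1335 kept direction and side of the threshold, 47 lost the call, 15 gained one, 43 counts moved by over 1.5 times and 17 turned. Of 3625 values of named types and pairs, 3335 kept both, 284 lost the call and 6 turned. Below, p is adjusted, and differences from non-myogenic types are in percentile points. Where fewer cells or samples entered by construction, fewer combinations were compared, and otherwise the cause was not tested. With at least 25 cells, the counts were 5 for types over days in the log ratio, 0 at matched UMIs and 1, 1 and 1 for states. Myonuclei over days in UMIs gained a call (permutation p = 0.0285), the myonuclear ratio lost it (-16.0, exact p = 0.0714), stem and progenitor genes turned (0.228, exact p = 0.981), the typical cell lost both calls (permutation p = 0.367 for UMIs and for genes), and the relative ratio of inflammatory monocytes at 1 dpi turned to 0.00623. With at least 5 cells, 2 types passed at matched UMIs, myonuclear genes over days lost the call (permutation p = 0.121) and the typical ratio gained one (permutation p = 0.0473). With at least 750 genes, which selects on genes, myonuclear genes over days lost the call (permutation p = 0.241), stem and progenitor genes turned (2.84, exact p = 0.740), the typical ratio gained a call (permutation p = 0.0473) and IIb minus IIx UMIs turned to 0.05. With at most 10% mitochondrial UMIs, 9 types passed in relative UMIs, 7 in relative genes and 0 at matched UMIs, and 2 states in the ratio. The ratio lost the call for myonuclei (-14.7, exact p = 0.0823) and for stem and progenitor types (-15.3, exact p = 0.130), whose genes turned at any depth (7.19, exact p = 0.423) and at matched UMIs (1.09, exact p = 1.00), and the typical cell lost both calls (permutation p = 0.0775 for UMIs and for genes). The stricter choice of cells selects on UMIs and genes themselves and left MuSCs with 10 cells in 1 of 6 samples at 1 and 2 dpi, so its values do not test the differences. Under it, 4 types passed in the ratio and 0 at matched UMIs. Myogenic UMIs lost the call (-7.65, exact p = 0.194), stem and progenitor UMIs gained it (27.1, exact p = 0.00502), and their genes turned at any depth (20.9, exact p = 0.0253) and at matched UMIs (32.3, exact p = 0.250). Over days, myonuclear UMIs gained a call (permutation p = 0.0110), and stem and progenitor UMIs (permutation p = 0.0666) and ratio (permutation p = 0.134) lost it. The typical cell lost both calls (permutation p = 0.151 for UMIs and for genes), and the relative ratio of inflammatory monocytes at 1 dpi turned to 0.00684. Without the highest doublet scores, 2 states passed in the ratio, and myonuclear genes over days (permutation p = 0.0566) and typical UMIs (permutation p = 0.484) and genes (permutation p = 0.444) lost the call. With the mean over cells, 0 types passed at matched UMIs, myonuclei over days lost the call in genes (permutation p = 0.0658) and gained it at matched UMIs (permutation p = 0.0206). With BBKNN labels, types over days numbered 1 in UMIs, 1 in genes and 3 in the ratio of 21 tested, and relative types 9 and 8. Stem and progenitor UMIs gained a call (27.1, exact p = 0.000942), their genes turned (18.8, exact p = 0.0479) and the typical cell lost both calls (permutation p = 0.172 for both). With Scanorama labels, 8 of 17 types passed in relative genes, 5 of 17 in the ratio over days and 2 types at matched UMIs. Of 6 pairs, 5, 6 and 4 passed. Of the 5 and 3 same-named types called with Harmony in relative genes and in the ratio over days, 3 and 3 passed. Myonuclear genes over days lost the call (permutation p = 0.0527), stem and progenitor genes turned (2.02, exact p = 0.804), the typical ratio gained a call (permutation p = 0.0161), relative UMIs of inflammatory monocytes at 7 dpi turned to 0.0443 and the ratio of Cx3cr1_hi minus Cx3cr1_lo macrophages to 0.00769. Without ranks, stem and progenitor UMIs turned (-0.11, exact p = 0.736). In place of all genes, genes at 2000 to 3000, 3000 to 5000 and 5000 to 8000 UMIs gave 0, 1 and 1 types over days against 6. The position in genes over days lost the call for myogenic types (permutation p = 0.722 at 2000 to 3000 and 0.388 at 3000 to 5000), for myonuclei (0.722 and 0.226) and for stem and progenitor types at 5000 to 8000 (0.0902). At 2000 to 3000 UMIs the matched count was 0. At 5000 to 8000 UMIs the myogenic difference lost the call (-26.0, exact p = 0.0776) against both the matched and the unmatched value, and gained one over days (permutation p = 0.00624). With UMIs corrected for detection 13 types passed, and with limma 16 in the relative ratio. With the mean of the 6 types present in all samples as the reference, 10, 9 and 8 relative types passed in UMIs, genes and ratio, and 20 of 38 named values lost the call. With the median over all cells the typical ratio gained a call (permutation p = 0.00699), and at 2 dpi it turned to -0.00917. Alternatives chosen after seeing the data were the limit of 10% mitochondrial UMIs and the next 3. Among cells given the same broad class by all 3 label methods, stem and progenitor UMIs gained a call (22.2, exact p = 0.0137), their genes turned at any depth (18.2, exact p = 0.0652) and at matched UMIs (1.27, exact p = 0.875), their ratio over days lost the call (permutation p = 0.0549), matched myonuclei gained one (permutation p = 0.0281), and the typical cell lost both (permutation p = 0.123 for UMIs and for genes). Without the 4 samples with under 50% of reads in cells, 4 types passed in the ratio and 0 at matched UMIs. Myonuclear genes over days (permutation p = 0.526), the ratio of myonuclei (-11.7, exact p = 0.164) and of stem and progenitor types (-15.4, exact p = 0.105) and typical UMIs (permutation p = 0.0552) lost the call, and stem and progenitor genes turned (0.170, exact p = 0.987). Without the uninjured group, 3 types passed in the ratio and 0 at matched UMIs, and myonuclear genes over days (permutation p = 0.264) and the typical cell (permutation p = 0.133 for UMIs and for genes) lost the call. Replicate letters were not taken to pair samples. Deviations of the same letter correlated with a median of -0.133 over 15 pairs of groups (-0.988 to 0.931, 6 over 0.1). Each correlation rests on 3 or 4 samples, so it cannot decide whether samples of 1 letter were paired. With the letter as a block, 5 types passed in the ratio over days against 8, and no other count moved by over 1.5 times. Leaving out 1 sample at a time, the UMI difference was -26.9 to -23.6 for myogenic types, -47.1 to -46.1 for myonuclei and -0.335 to 5.11 for stem and progenitor types, which was negative without 3.5 dpi B (-0.185), C (-0.221) or D (-0.335), 5 dpi C (-0.301) or 7 dpi B (-0.234). In genes it was -30.5 to -27.2, -50.0 to -49.1 and -5.61 to -0.0682. In the ratio it was -22.1 to -18.0, -20.4 to -16.1 and -22.1 to -16.7, where the last lost the call (exact p = 0.0513 to 0.0556) without uninjured A, B or C, 3.5 dpi A, B, C or D, 5 dpi C or 7 dpi C. Over days, p was 1.80e-05 to 7.71e-05, 0.0608 to 0.494 and 1.80e-05 to 5.40e-05 in UMIs, 2.25e-05 to 7.71e-05, 0.00315 to 0.0382 and 1.80e-05 to 7.71e-05 in genes, and 1.80e-05 to 5.40e-05, 3.00e-05 to 0.000180 and 1.80e-05 to 0.000193 in the ratio. Counts in UMIs, genes and ratio were 13 to 16, 12 to 14 and 10 to 13 for pairs, 2 to 4, 2 to 3 and 4 to 4 for states, 5 to 8, 6 to 8 and 5 to 8 for types over days (5 in the ratio without uninjured A or B), and 12 to 16, 10 to 16 and 9 to 14 for relative types. For the typical cell p was 0.00595 to 0.0403 in UMIs and genes and 0.0357 to 0.245 in the ratio, which passed without 3.5 dpi C (0.0357) or 5 dpi B (0.0497), and 0 exact tests passed throughout. At matched UMIs the difference was -49.7 to -42.3 for myogenic types, -57.7 to -56.7 for myonuclei and -20.2 to -5.74 for stem and progenitor types. Over days p was 0.169 to 0.579 for myogenic types and 0.0249 to 0.475 for myonuclei, which passed without 7 dpi C (0.0249). The count was 0 without uninjured A, 2 dpi A or 2 dpi B, and 2 without 7 dpi A or C. Not run were limma for the single value of a typical cell, states under BBKNN or Scanorama labels, and differences from uninjured muscle without the uninjured group.

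Depth limits these values in that UMIs per cell were corrected for detection only through the saturation of each sample, and cells could not be thinned to 1 depth without counts per gene. Medians of types near the minimum number of UMIs per cell rest on the cells above it.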
